A study of Drosophila melanogaster with 3 samples.

Results

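Binding of Schnurri (shn), a large zinc finger transcription factor and Smad cofactor in Dpp signalling, was examined by ChIP-seq at 9 genes of the insulin and TOR pathway, namely InR, chico, foxo, Tsc1, gig, Rheb, S6k, Thor and Lk6. Peaks were selected by position: a peak belonged to a gene when its summit lay inside the gene or within 10 kb of either end. This gave 16 of the 3586 peaks in the authors' reproducible list, the peaks kept by their irreproducible discovery rate (IDR) procedure. Being in that list does not mean being found in each replicate. Of the 3586, 3254, 3580 and 3576 overlapped a peak of replicates 1, 2 and 3. At the 9 genes, membership followed pooled signal, the lowest inside the list being 93.5 and the highest outside it 88.6. The genes were chosen with their peak signals and ranks already known, so those values are given as a description and were not tested. No expression was measured, so the embryo label could not be checked against marker genes. The 3 samples were biological replicates of 1 group. They were mixed-sex Drosophila melanogaster embryos, 0 to 24 h old, of a transgenic line carrying shn with a GFP tag at its C-terminus, and chromatin sheared to 200 to 800 bp was precipitated with an anti-GFP antibody. All 3 replicates carried the tagged protein, and the control used by the authors in peak calling was not analysed here. Whole embryos over the whole of embryogenesis were pooled, so the cells and stages that carried a peak cannot be told apart.

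In flies, insulin-like peptides bind the receptor InR, which signals through the adaptor chico to PI3 kinase and Akt. Akt keeps the transcription factor foxo out of the nucleus. TOR complex 1 is switched on by the small GTPase Rheb, which the Tsc1 and gig (TSC2) complex holds inactive. Its target S6k promotes growth, while Thor (4E-BP) binds the cap-binding protein eIF4E and holds back translation until TOR phosphorylates it. Lk6, the fly homologue of the Mnk kinases, phosphorylates eIF4E. InR and Thor are well known targets of foxo in flies.

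The sequences around 4 of the summits are shown because they carry the strongest peaks at Lk6, InR and foxo, and the promoter summit of Thor. They were read from the Release 6 assembly (dm6) on the strand of the gene. Capitals mark matches that fall inside these stretches to GAGAG and to the forkhead site TGTTTAC, the letters bound by FOXO proteins, searched on both strands. GAGAG matches may overlap each other.
Lk6, chr3R:11760943-11761143, minus strand: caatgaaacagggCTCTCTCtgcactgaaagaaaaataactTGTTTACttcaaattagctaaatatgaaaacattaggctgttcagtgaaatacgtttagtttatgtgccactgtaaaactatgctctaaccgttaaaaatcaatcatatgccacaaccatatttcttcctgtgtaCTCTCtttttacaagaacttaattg
InR, chr3R:21590742-21590942, minus strand: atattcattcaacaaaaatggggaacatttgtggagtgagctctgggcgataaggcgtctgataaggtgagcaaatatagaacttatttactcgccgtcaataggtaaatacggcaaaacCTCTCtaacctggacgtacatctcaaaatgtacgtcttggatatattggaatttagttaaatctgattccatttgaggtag
foxo, chr3R:14052183-14052383, plus strand: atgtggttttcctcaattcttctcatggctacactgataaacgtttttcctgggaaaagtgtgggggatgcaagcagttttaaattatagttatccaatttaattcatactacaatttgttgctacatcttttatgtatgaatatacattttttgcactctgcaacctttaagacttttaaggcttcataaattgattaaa
Thor, chr2L:3478364-3478433, plus strand: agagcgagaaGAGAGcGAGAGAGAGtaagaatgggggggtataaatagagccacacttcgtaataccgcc
The first 3 are the 100 bp on each side of the summit and lie outside exons. The Thor stretch is the 70 bp before its first transcription start site (TSS), since the summit itself lay in the 5' UTR, and the TGTTTAC match near that summit lies past the end of the printed stretch.

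Reproducible Schnurri peaks lay near most of these genes and at the promoters of 3 of them. Of the 9 genes, 7 had at least 1 reproducible summit in their window, where 57.7% of 13945 protein-coding genes did. Only InR, Thor and Lk6 had one within 1 kb of their own TSS, where 21.1% of all genes did. The windows covered 308513 bp, or 0.23% of the 6 chromosome arms, and held 0.446% of the reproducible peaks. They also held 0.39% of the whole pooled list, and 0.253%, 0.407% and 0.513% of the lists of replicates 1, 2 and 3. The 9 genes had a median length of 9830 bp against 2166 bp over all genes, and the median number of reproducible summits per window was 1 in both. InR held 5 summits, foxo and Thor 3 each, Lk6 2, and gig, Rheb and S6k 1 each, while chico and Tsc1 had none. As many as 5 summits were present at 2.48% of all genes.

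The 16 summits differed widely in signal, a value given per peak by the authors' peak caller. Signal ran from 93.5 to 1478.5, with a median of 158 against 142 for the whole reproducible list. By rank in that list the summits ran from 5 to 3465. The summit in Lk6 had 3.58 times the signal of the next, at InR, and 10 of the 16 were at or above the median of the list. The summit just inside the end of the list was the one at InR, of signal 93.5. Just outside it lay a summit of signal 88.6 and pooled rank 3771, 2308 bp upstream of S6k. Its nearest TSS was that of mad2, 146 bp away. At the edge of the windows, the reproducible summit farthest from its gene was 4662 bp from foxo, and the nearest one left out was 11216 bp from chico.

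**Figure D1:**
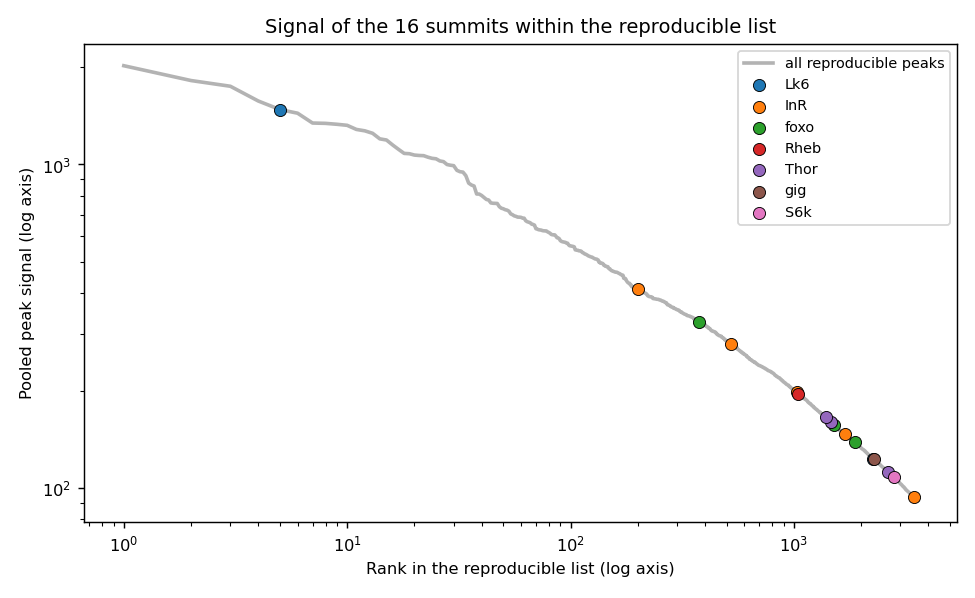
Pooled peak signal (log axis) against rank in the reproducible list (log axis); the grey line is all 3586 peaks and coloured points are the 16 summits by gene. Lk6 sits at rank 5 and the next summit, of InR, at rank 200, while most of the others lie below rank 1000.

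At the receptor gene InR (FBgn0283499, 3R from 21570248 to 21619321, minus strand) the peaks gathered at both ends of its long 5' region. The strongest, at position 21590842, lay 651 bp upstream of an internal TSS and inside an intron. Its pooled signal was 413 (rank 200), and it ranked 880, 259 and 78 in replicates 1, 2 and 3. It was thus strong in every replicate, and weakest in replicate 1. In the same order its signal was 60.1, 131 and 229, each list having its own scale. Divided by the median signal of the replicate's own list, this was 4.33, 8.64 and 12 (mean 8.33 ± 3.86, SD, n = 3). A second summit 84 bp upstream of the first TSS of the gene ranked 521 in the pooled list, and 1522, 471 and 297 in the replicates. Between them, 2 summits lay in the first part of the gene body, 5498 and 3956 bp downstream of a TSS, at pooled ranks 1030 and 1699. The matched peak of replicate 1 for the first of these had its summit 363 bp away from the pooled summit. The other lay within lncRNA:CR44034, a noncoding gene inside InR. The last and weakest InR summit was 49 bp downstream of the same internal TSS as the strongest, in the 5' UTR, at rank 3465. InR has 4 annotated TSSs, so this is not its only internal one. It ranked 14202, 2960 and 4119 in the replicates and so was in the top list of replicate 2 only, a top list being the 3586 peaks of highest signal in a replicate. The adaptor gene chico (FBgn0024248, 2L) had no reproducible summit. A pooled peak 12 bp downstream of its TSS had a signal of 45.8 and ranked 11002, and replicate 1 had no summit within 1 kb of that TSS.

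At foxo (FBgn0038197, 3R from 14056945 to 14087978, plus strand) the 2 strongest summits were upstream of the gene, and no reproducible summit lay within 1 kb of its TSSs. The strongest summit, at position 14052283, lay 4662 bp upstream in intergenic sequence, with a pooled signal of 326 (rank 375). It ranked 276, 263 and 1084 in replicates 1, 2 and 3, and had signals of 110, 131 and 77.4. Here replicate 3 was the lowest. Its signal was 6.87 ± 2.45 times the list median (SD, n = 3). Another summit 3282 bp upstream ranked 1512 in the pooled list and 923, 1330 and 4639 in the replicates. A summit past the 3' end of foxo, at pooled rank 1873, was nearest to Npc2b, 531 bp upstream of that gene. The strongest pooled peak within 1 kb of a foxo TSS, 21 bp downstream, had a signal of 46.6 and ranked 10661. Each replicate also had a summit within 1 kb of a foxo TSS, and the strongest of these ranked 4775, 9421 and 11210. They lay at different places, 312 bp upstream and 225 and 890 bp downstream of a foxo TSS in replicates 1, 2 and 3. Their −log10 q, also given by the peak caller, was 0.781, 0.838 and 1.13.

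**Figure D2:**
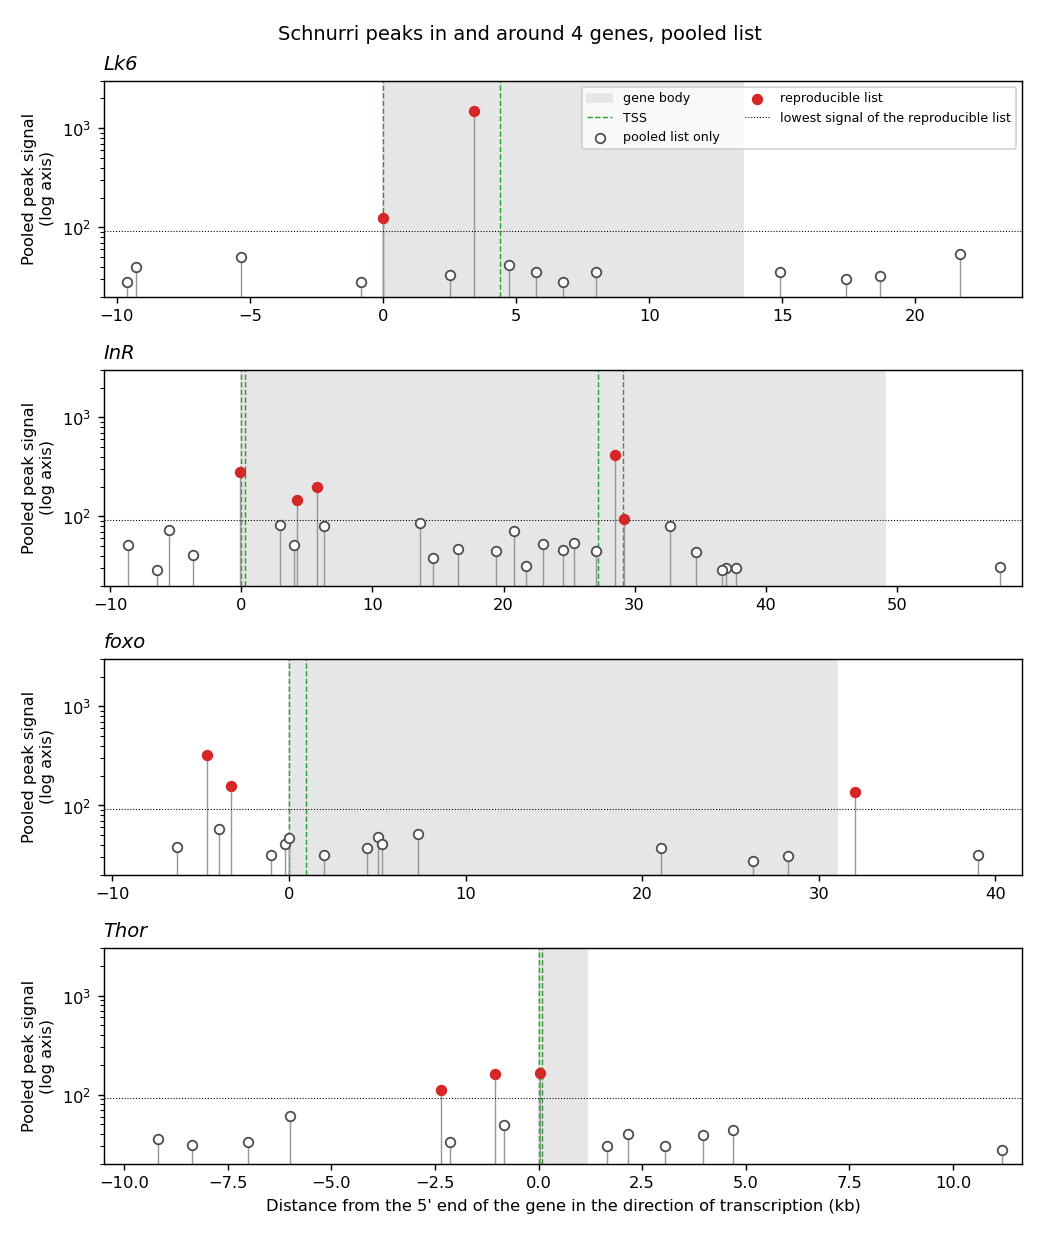
Pooled peak signal (log axis) against distance from the 5' end of Lk6, InR, foxo and Thor, in kb along the direction of transcription; red points are in the reproducible list, open points in the pooled list only, green lines are TSSs and grey is the gene body. The Lk6 peak of signal 1478.5 stands inside the gene, and the 2 strong foxo peaks lie upstream of the gene. The reproducible InR peaks lie near its first TSS and near an internal TSS, apart from 2 in an intron, 3956 and 5498 bp from a TSS.

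Tsc1, gig, Rheb and S6k, which act on or below TOR, each have 1 TSS, and none had a promoter summit in the reproducible list, where 16% of all genes with 1 TSS did. Tsc1 (FBgn0026317, 3R), which stabilises the inhibitory complex, had no reproducible summit, and no summit within 1 kb of its TSS in any replicate or in the pooled list. For gig (FBgn0005198, 3L), the GTPase-activating subunit, the single reproducible summit was 220 bp upstream of CG7328, beyond the 3' end of gig, at rank 2293. Within 1 kb of the gig TSS, only replicate 1 had a summit, at rank 23277. The summit assigned to Rheb (FBgn0041191, 3R) was 3152 bp upstream of it, in an intron of CG12746 and 603 bp downstream of a TSS of that gene, with CG14671 also starting within 1 kb. It ranked 1043 in the pooled list, and 870, 995 and 1543 in the replicates. At Rheb itself the strongest pooled peak within 1 kb was 803 bp upstream, in coding sequence and nearer to CG2931, at rank 7000. S6k (FBgn0283472, 3L) had 1 reproducible summit, in an intron 1030 bp downstream of its TSS and so just outside the 1 kb limit, at rank 2799. It ranked 2937, 5053 and 2113 in the replicates. A weaker pooled peak 21 bp upstream of the S6k TSS ranked 7913.

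Thor (FBgn0261560, 2L from 3478434 to 3479612, plus strand), a short gene, carried 3 reproducible summits on its upstream side and at its start. The summit at position 3478464 lay 30 bp downstream of the TSS, with a pooled signal of 166 (rank 1390). It ranked 8823, 1862 and 629 in replicates 1, 2 and 3, with signals of 16.8, 48.8 and 99.6. Its signal was 1.21, 3.21 and 5.23 times the list median. The replicates thus differed greatly at the Thor start, and in replicate 1 the signal was close to the median of the list. The summit 1043 bp upstream was steadier, with ranks of 1454, 1750 and 1571, signals of 44.1, 50.4 and 65.0, and a signal of 3.30 ± 0.121 times the list median (SD, n = 3). It lay inside the noncoding gene lncRNA:CR43928. The remaining summit, 2347 bp upstream and with lncRNA:CR43928 and lncRNA:CR45372 starting within 1 kb, ranked 2648 in the pooled list and 2681, 5260 and 3391 in the replicates. By ranks over the 3 replicates, the peaks most like the one at the Thor start, among 3240 found in all replicates, were those nearest to srp, pirk and CG30122.

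Lk6 (FBgn0017581, 3R from 11750931 to 11764457, minus strand) carried the strongest peak of the 9 genes. Its summit, at position 11761043, lay in an intron, 964 bp upstream of the internal TSS and 3414 bp into the gene from its first TSS. The signal was 377, 546 and 544 in replicates 1, 2 and 3, which gave ranks of 12, 4 and 5 of 30000. Relative to the list median, these were 27.1, 35.9 and 28.5 (mean 30.5 ± 4.72, SD, n = 3). The summit was at the same base in replicates 1 and 2 and 2 bp away in replicate 3. Among the 2949 genes with a reproducible promoter summit, Lk6 stood at position 6 by its best rank. That position rests on this summit, which at 964 bp was just inside the 1 kb limit. Within 500 bp of a TSS, Lk6 had only the weaker reproducible summit described next. The summit at the first TSS of Lk6, 16 bp upstream, had a pooled signal of 123 (rank 2270), so that the internal peak was 12 times as high. It ranked 21182, 4510 and 1090 in the replicates and was in the top list of replicate 3 only. The peaks with the ranks most like those of the internal Lk6 peak were nearest to CG1888, Chro and px, at distances of 0.357, 0.400 and 0.426 in log10 rank over 3 replicates.

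Across replicates, 9 of the 16 summits were in all 3 top lists, 5 in 2 and 2 in 1, where 53.8% of all reproducible peaks were in all 3. Each replicate had 13 of the 16 in its top list (81.2%), against 74.2%, 85.0% and 78.1% of all reproducible peaks in replicates 1, 2 and 3. The ranges of rank over replicates overlapped for 14 of the 15 pairs of neighbours in pooled order, so those orders do not exceed the replicate spread. The remaining pair was the internal Lk6 summit, at ranks 4 to 12, and the next one, and the best rank of any other of the 16 summits was 78. Lk6 was selected on these ranks, so this is a description. Distance classes were chosen after the ranks were seen and are given as values only. At the 4 summits within 100 bp of a TSS the median rank was 11512.5, 2411 and 859.5 in replicates 1, 2 and 3. Over all 1056 reproducible summits that close to a TSS, the medians were 1679, 1879.5 and 1823, over the peaks found in each. At the 7 summits over 1 kb from any protein-coding TSS they were 1454, 1750 and 2113. Over all 1250 such summits they were 1968, 1927 and 1988.

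**Figure D3:**
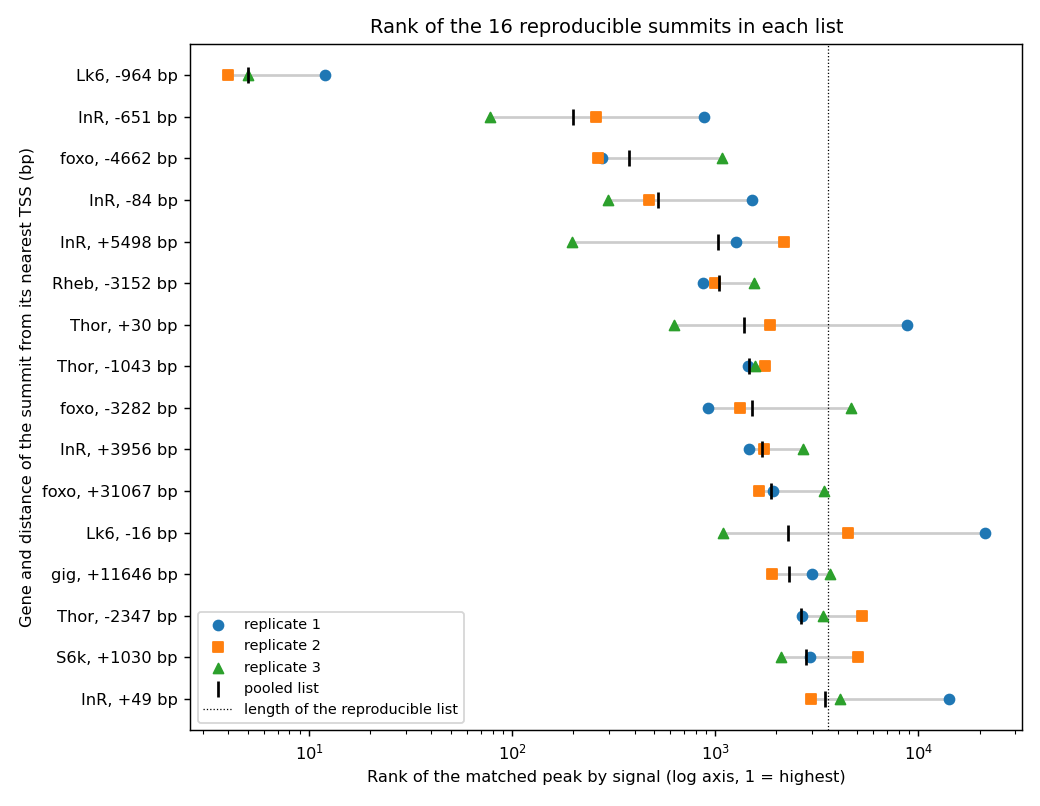
Rank of the matched peak (log axis, 1 is the highest signal) in each replicate and in the pooled list for the 16 reproducible summits, labelled by gene and distance from the nearest TSS of that gene; the dotted line marks 3586. The internal Lk6 summit stays between ranks 4 and 12, and the Lk6 summit 16 bp upstream of its first TSS runs from 1090 to 21182.

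The longer lists held many weaker entries at these genes. By its title the pooled list holds background as well as peaks, so a weak entry need not be a bound site. It held 117 summits in the windows, of which 101 were outside the reproducible list (86.3%, against 88.0% of all pooled peaks). A −log10 q of 2 was reached by 23 of the 117, and by 5247 of all 30000. The pooled summits 12 bp from the chico TSS, 21 bp from a foxo TSS and 21 bp from the S6k TSS had 0.551, 0.589 and 0.978. The replicate lists held 76, 122 and 154, although each holds 30000 peaks. A pooled summit lay within 1 kb of a TSS at 7 of the 9 genes, where 62.7% of all genes had one. No reproducible summit of the 16 lay in coding sequence, which allows a share of up to 18.8%, and 0.948% of all reproducible summits did. Of the 101 others 22 did (21.8%), against 26.9% of all pooled peaks outside the reproducible list. Of the 16, 8 were intergenic with respect to protein-coding genes, 6 were in introns and 2 in a 5' UTR. For 13 of the 16 the nearest TSS was that of the gene itself, and 6 were within 1 kb of it. Of all reproducible summits, 43.1% were intergenic, 41.6% in introns and 13.0% in a 5' UTR.

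**Figure D4:**
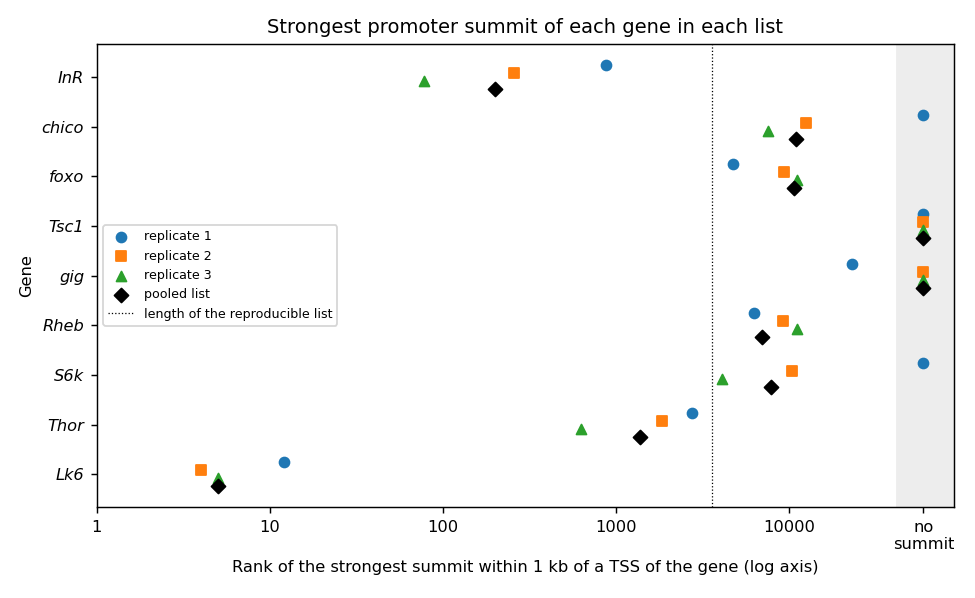
Rank (log axis) of the strongest summit within 1 kb of a TSS of each gene in the 3 replicates and the pooled list; points in the grey band mean that the list has no such summit. Only InR, Thor and Lk6 lie left of the dotted line at 3586 in the pooled list, and Tsc1 has no summit in any list.

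Of the 9 motifs searched, 4 had a match at 1 or more of the 16 summits, and no count was tested. TGTTTAC, the forkhead site, was found within 100 bp of 3 of the 16, those at an internal TSS of InR, at the start of Thor and inside Lk6. The InR summit with the match was the weakest of the 5 there, at rank 3465. No other InR summit had a match, nor did any of the 3 at foxo. The forkhead site was found at 7.25% of all reproducible summits and within 100 bp of 6.09% of all TSSs. GAGAG, a repeat bound by GAGA factor, was at 5 of 16, against 24.4% of all reproducible summits and 24.9% of TSSs. The AP-1 site TGANTCA was at 2, in InR and upstream of foxo, against 5.72% and 3.74%. The E-box CACGTG was at 1 InR summit, against 2.73% and 2.79%. None of the 16 held TATCGATA, the DRE bound by DREF, which allows a share of up to 18.8% and was at 5.19% of all reproducible summits. Nor did any hold GGTCACAC, the core of M1BP motif 1, the GC-rich Mad site GCCGNCG, the CRE-like site TGACGTNA or a loose form of the Schnurri silencer element, which were at 2.98%, 5.27%, 1.09% and 0.279% of all reproducible summits. At TSSs they were 6.43% for the DRE, 5.68% for the M1BP core, 1960 of 19607 TSSs for the Mad site, 1.15% for the CRE-like site and 0.0969% for the silencer element. Median GC content within 100 bp was 39.3% at the 16 summits and 38.1% over all.

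Promoter peaks were also counted at other genes of the pathway. Of 47 other pathway genes, 20 had a reproducible summit within 1 kb of a TSS (42.6%, where 21.1% of all genes had one), and 36 had one in their window (76.6%, where 57.7% did). With only peaks of median signal or more this count was 9 (19.1%, against 11.9% of all genes). With peaks in the top lists of the other replicates, it was 14 without replicate 1 (29.8% against 14.9%), and 11 without replicate 2 (23.4% against 13.1%) or replicate 3 (23.4% against 15.2%). The list was compiled with earlier results of these data known and no test was made. Of the genes in the list with 1 TSS, 12 of 31 had a promoter summit, where 16% of all such genes did. With 2 TSSs it was 6 of 8, where 30.1% of all such genes did. With 3 or more it was 2 of 8, where 47.1% did. Of the 9 genes themselves, 0 of 5 with 1 TSS, 2 of 3 with 2 and the 1 with more had a promoter summit. None of the 7 insulin-like peptide genes Ilp1 to Ilp7 had one, where 21.1% of all genes did. The limit from 3 counts is 42.9% here. It is rough for so few chosen genes, and the difference was not tested.

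In the PI3 kinase branch, 7 of 8 genes had a promoter summit. The strongest was at Pi3K21B, the regulatory subunit gene, 1 bp upstream of the TSS, at pooled rank 261 and ranks 304, 267 and 247 in the replicates. The others included melt at rank 473, Pi3K92E (the catalytic subunit) at 911 and Akt at 1797. In the TOR complexes it was 4 of 6, with PRAS40 at 583, Tor itself at 808 and Sin1 at 2073. The Tor summit was nearer to the start of Vha68-1, and CG17385 starts within 1 kb of the Sin1 summit. The remaining one, 979 bp upstream of the raptor TSS, was nearest to Nep1, and Mipp2 also starts within 1 kb of it. Among amino acid sensors it was 2 of 7, led by Sesn (sestrin) at rank 88, whose summit was nearest to CG46429. The other, RagA-B, had its summit nearest to CG11970. Among stress and energy inputs 3 of 4 had one, with scyl, a REDD1 homologue, at 1449 and the kinase gene Lkb1 at 2002, where CG9588 also starts. The scyl summit matched no peak of replicate 1, and ranked 1642 and 597 in replicates 2 and 3. The outputs of growth and starvation had 4 of 8, with the GSK3 gene sgg at 115 and REPTOR, a transcription factor that TORC1 keeps inactive, at 362. No translation initiation gene of 4 passed, too few for the limit from 3 counts (75.0%) to mean much. Of these, eIF4E1, whose product Lk6 and Thor act on, had a pooled promoter peak at rank 3656. The one at eIF4A ranked 3799, and both were just below the end of the reproducible list. The gene rl, which encodes the ERK kinase upstream of Lk6, had no reproducible summit in its window.

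**Figure D5:**
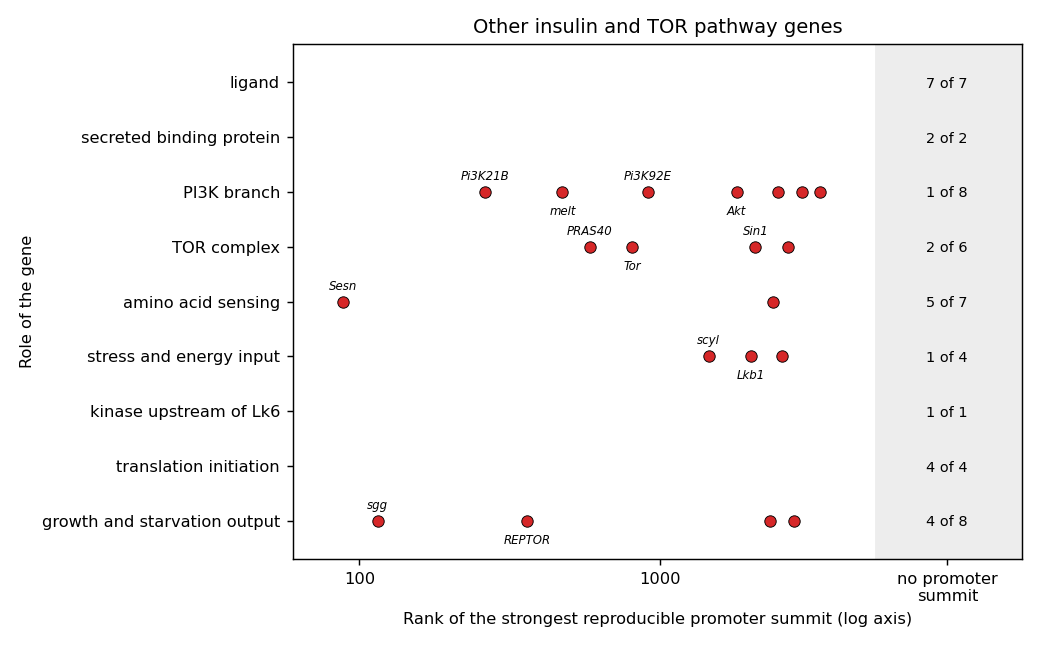
Rank (log axis) of the strongest reproducible promoter summit of each other pathway gene, by role, with the 12 of highest signal labelled and the number of genes lacking one in the grey band. Sesn at rank 88 and sgg at 115 are the highest, and no ligand or translation initiation gene has a point.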

How the data were processed

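ChIP-seq was done on 3 biological replicates of 1 group. The authors deposited dm6 peak lists for each replicate and for the pooled replicates (30000 peaks each), and after IDR (3586 peaks), made from alignments and a control, per the labels' notes. For every deposited peak the authors' caller gave a signal and a −log10 q. Which caller, settings and IDR threshold were used is not given in the sources used here. Depth is unknown, since no reads were used. A −log10 q of 2 was reached by 2385, 5289 and 7213 peaks in replicates 1 to 3. In the pooled list, which by its title holds background as well as peaks, 5247 reached it. The dm3 lists were not used.

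Analysis used Python 3.11.15 with pandas 2.3.3, numpy 2.4.6 and matplotlib 3.10.9. TSSs (19607) were those of 13945 protein-coding genes of Ensembl release 115. Positions are 1-based. A replicate peak matched when it overlapped a reproducible peak by at least 1 bp, the highest signal being taken. Motifs were searched in 201 bp. Distances and motif search were checked on made-up intervals. Limits for a count of 0 use 3 counts and cover counting error alone. They are rough for 4 or 7 genes, and the genes were not drawn at random. The members, the 47 pathway genes and the motifs were chosen with earlier results of these data known. Named were the 9 genes, genes nearest to or starting within 1 kb of their reproducible summits, up to 12 pathway genes by promoter signal, and for Lk6 and Thor the 3 peaks of most similar ranks. Pathway genes eIF4E1, eIF4A, rl, raptor and RagA-B were named after their values were seen. Alternatives covered flank, TSS distance, signal and q minimum, overlap, motif window and leaving out each replicate. No test was made.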

Additional observations from a re-analysis of the deposited data

How the results depend on the processing

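Of 51 alternative values, 36 were within 1.5 times the reported one. The number of reproducible summits at the 9 genes (16) was 7 with no flank, 25 with 20 kb and 10 when only peaks of median signal or more were kept. With 1 replicate left out, meaning peaks in the top lists of the other 2, it ran from 10 to 11 (10 without replicate 1). The number of genes with one (7) was 4 with no flank. Genes with a promoter summit rose from 3 to 6 with 5 kb from a TSS. Summits in all 3 top lists (9) numbered 4 with no flank and 15 with 20 kb. Pooled summits (117) numbered 48 with no flank, 68 with 2 kb, 186 with 20 kb and 23 with a −log10 q of 2 or more. Other pathway genes with a promoter summit (20) numbered 9 when only peaks of median signal or more were kept, and 11 to 14 with 1 replicate left out (11 without replicate 2 or 3). The shorter flanks and stricter lists hold fewer peaks by construction. Matches to the DRE stayed at 0 with 50 or 250 bp windows and without any 1 replicate. Read depth is unknown, and replicate 1 has fewer regions at a −log10 q of 2 or more, which limits what its low ranks show. No paired analysis was possible because there is 1 group.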

Other observations

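Around chico, which had no reproducible summit in its window, the nearest one lay at another gene. It was 11216 bp from chico and 396 bp downstream of a TSS of ova (signal 127, rank 2156). Near Tsc1, the closest reproducible summit was 57 bp upstream of p38a, which encodes a stress-activated MAP kinase, 17368 bp from Tsc1 (signal 183, rank 1173). Outside the windows of Lk6, summits 122 and 487 bp upstream of TSSs of l(3)neo38 ranked 1383 and 1881. These neighbours were chosen after their values were seen.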
